A study of Mus musculus with 9 samples.

Results

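The transcriptome of mouse embryonic stem cells that lack Hbxip was set against that of wild-type cells in 3 cultures. All 9 RNA-seq libraries of the study entered the comparison, chosen by their labelled genotype. The 6 KO libraries, genotype Hbxip-/-, were 2 from a pluripotent culture, 2 from cells kept without the cytokine LIF (leukaemia inhibitory factor) for 96 h, and 2 from embryoid bodies. The sample names call the culture without LIF day 4. Embryoid bodies are cell aggregates in which stem cells differentiate. The 3 WT libraries, genotype wild type, were 1 from each of these cultures. All libraries came from the E14 line, a male line of strain 129. The labels give neither how the allele was made nor how many KO clones there were. They do not say whether libraries numbered 1 and 2 came from separate clones, cultures or extractions. The spread between 2 KO libraries may therefore be technical, and no culture had a replicate of WT. Of 20287 genes listed in the files, 13990 had a mean of at least 0.5 FPKM and were tested. FPKM is the authors' deposited count of fragments scaled to transcript length and to library size. Of the tested genes, 874 (6.25%) had a genotype difference that kept its sign and size in all 3 cultures, and these are described most closely.

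Hbxip, now named Lamtor5, is a subunit of Ragulator, the complex that anchors the Rag GTPases on the lysosome. When amino acids are plentiful, the Rags bring mTORC1, the kinase complex that promotes cell growth, to the lysosomal surface, where it is switched on. There mTORC1 phosphorylates TFEB and TFE3, transcription factors of lysosomal and autophagy genes, and holds them in the cytoplasm. In embryonic stem cells, cytoplasmic retention of TFE3 is also known as a step in the exit from naive pluripotency, the state of the preimplantation epiblast.

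The libraries held 10147277 to 10863845 rounded expected counts, so that a count of 0 allows at most 0.276 to 0.296 CPM in a library. The 10 most abundant genes took 5.418 to 6.159% of a library. The first principal component, 51.5% of the variance, set the KO libraries of the pluripotent culture (scores 86.5 and 74.5) apart from the other libraries, KO and WT (-64.6 to 11.5). Pou5f1, Sox2 and other stem cell markers were high throughout: 8 markers summed to 3949 to 5140 FPKM in KO and 3967 to 5129 FPKM in WT. Fibroblast markers summed to 104.7 to 424.6 FPKM in KO and 64.2 to 193.6 FPKM in WT, with Vim the most abundant of them in every library. Col3a1, Dcn and Lum stayed at or under 0.19 FPKM in every library. In these bulk samples, fewer cells of a type and less RNA per cell cannot be told apart.

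Reads from the targeted gene remained in the KO libraries. Lamtor5 had 30.97 and 29.1 FPKM in KO against 40.7 in WT in the pluripotent culture, 16.2 and 15.5 FPKM in KO against 38.5 in WT without LIF, and 22.99 and 18.3 FPKM in KO against 41.8 in WT in embryoid bodies. Every KO library was below every WT library, as for 7.6% of all genes tested, by a smaller margin in the pluripotent culture, where the difference was -0.31 ± 0.15 log2 (KO minus WT, ± SE). Over the 3 cultures it was -0.86 ± 0.17 log2, adjusted p = 0.00589 (from edgeR's quasi-likelihood fit to 6 KO and 3 WT libraries with culture as a covariate). Which part of the gene was deleted is not given in the sources used here, so transcript levels alone do not test the labels. The call was lost with the LIF withdrawal culture left out (adjusted p = 0.0904) and with each KO pair summed to 1 library (adjusted p = 0.0977).

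At an adjusted p (Benjamini-Hochberg) under 0.05, 3787 of 13990 genes, 27.1%, differed between KO and WT. Of these, 1858 (13.3%) were higher and 1929 (13.8%) lower in KO, and these shares are the background for every list below. Whether the differences come from loss of Hbxip or from the clone or line was not tested. By at least 2-fold, 607 (4.34%) were higher and 907 (6.48%) lower, and 968 (6.92%) were higher and 791 (5.65%) lower with a call in each culture on its own. With each KO pair summed to 1 library, which leaves 2 residual degrees of freedom, 784 genes were called, 423 higher and 361 lower, and 782 of them were among the 3787. Without the WT library of the pluripotent culture 5896 were called. Without that of LIF withdrawal 2544 were called, of which 1228 were lower. A difference was taken to keep sign and size if the gene was called, the 3 cultures agreed in sign, each reached 1.5-fold, and the smallest log2 difference was at least 0.5 of the largest. That description, which carries no test of its own, held for 432 genes higher in KO (3.09%) and 442 lower (3.16%). The median log2 differences of the higher genes were 1.30, 1.21 and 1.20 in the pluripotent culture, without LIF and in embryoid bodies. Those of the lower genes were -1.50, -1.44 and -1.36. The rule itself asks for 1.5-fold and a like size in each culture, so these medians describe the choice and test nothing. Over all genes tested the medians were -0.008, 0 and 0. Most called genes kept their sign, 1848 of 1858 higher and 1881 of 1929 lower, but 1173 and 1059 of these stayed under 1.5-fold in some culture. Another 243 and 380 reached it everywhere with uneven size. Sirt3 and Dop1b stood just inside the 1.5-fold limit, and Zcchc7 and Dnajb2 just outside. Galk2 and Ceacam2 stood just inside the limit on evenness, and Hdc and Cxadr just outside.

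**Figure D1:**
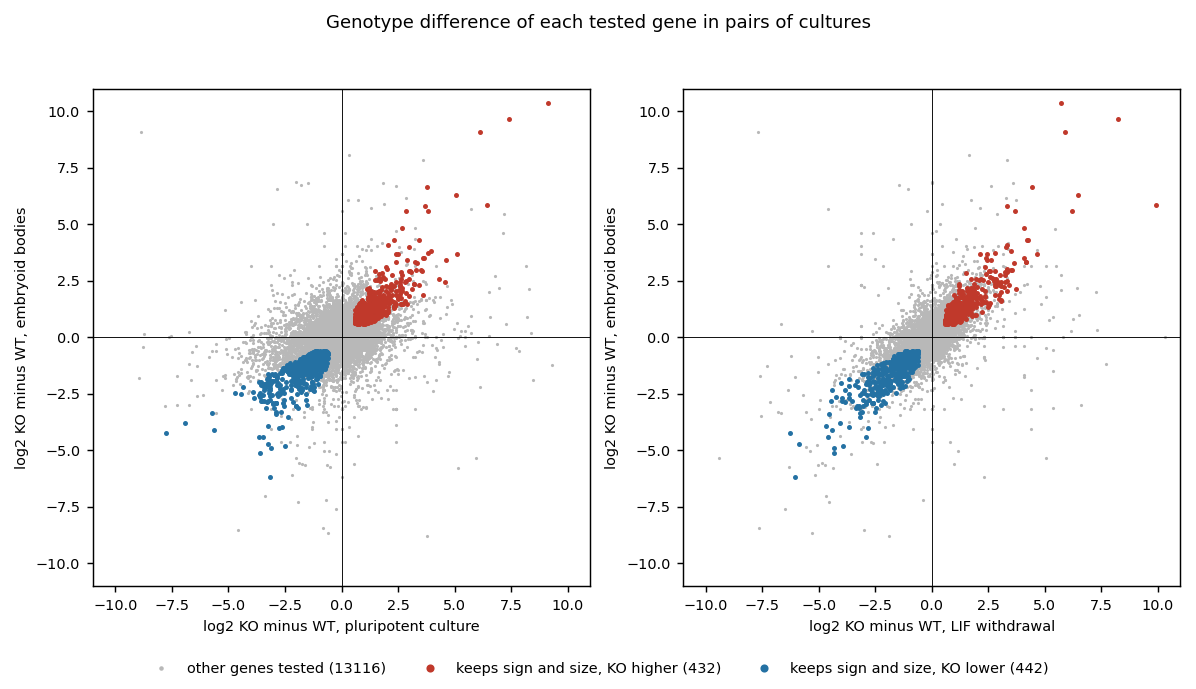
Log2 KO minus WT of every tested gene in embryoid bodies (vertical axis) against the same difference in the pluripotent culture (left) or LIF withdrawal (right), 1 point per gene. Red and blue points are the 432 higher and 442 lower genes that keep sign and size, and grey points the other genes. Each axis rests on 2 KO libraries and 1 WT library.

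Among the 12 higher genes with the largest minimum difference, several were close to silent in WT. Magea4, a MAGE-family gene of germ cells and tumours, had 14.3 and 13.7 FPKM in KO against 0.20 in WT in the pluripotent culture, 7.22 and 5.66 FPKM in KO against 0.10 in WT without LIF, and 6.3 and 7.82 FPKM in KO against 0 in WT in embryoid bodies. The ratio of counts was 69.1 (95% exact binomial interval of counting error only, 18.9 to 573) in the pluripotent culture and 63.3 (11.2 to 2521) without LIF. In embryoid bodies, where WT had 0 counts, KO was at least 22.6-fold higher, taking 3 counts for WT. Cd99, which encodes a cell-surface glycoprotein, was silent or nearly so in WT in the same way. It had 7.05 and 6.45 FPKM in KO against 0 in WT in the pluripotent culture, 5.69 and 5.65 FPKM in KO against 0.10 in WT without LIF, and 14.9 and 19.2 FPKM in KO against 0 in WT in embryoid bodies. KO was at least 22.2-fold higher in the pluripotent culture and at least 54.8-fold higher in embryoid bodies, and the ratio without LIF, scaled to library size, was 55.97 (9.85 to 2229.9, an interval for counting error only). Cyp2c69, a cytochrome P450, and Akr1c18, a steroid dehydrogenase that inactivates progesterone, were lower in level but also near 0 in WT, at 0.51 to 2.83 and 0.32 to 3.34 FPKM in KO and at most 0.21 and 0.24 FPKM in WT. Spint5, which the rule also named, had 6 and 3 counts over the KO pairs without LIF and in embryoid bodies against 0 in WT, so its size there lies at the limit of detection. Its call was lost without the WT library of the pluripotent culture (adjusted p = 0.0683).

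Better measured were Hbegf and Aard. Hbegf, the heparin-binding ligand of the EGF receptor, had 80.9 and 74.95 FPKM in KO against 8.57 in WT in the pluripotent culture, 43.6 and 36.8 FPKM in KO against 3.65 in WT without LIF, and 40.1 and 37.5 FPKM in KO against 4.91 in WT in embryoid bodies. Hbegf keeps sign and size, a choice that already places KO above WT within each culture. All 6 of its KO libraries lay above all 3 WT libraries, as in 8.58% of genes tested. Its difference was 3.26 ± 0.14 log2, adjusted p = 4.12e-05, with 3.31, 3.52 and 2.97 log2 in the 3 cultures. Values given in threes run from the pluripotent culture through LIF withdrawal to embryoid bodies. Aard, an alanine- and arginine-rich protein gene, had 185 and 177 FPKM in KO against 20.9 in WT in the pluripotent culture, 194 and 163 FPKM in KO against 10.3 in WT without LIF, and 94.04 and 78.98 FPKM in KO against 8.67 in WT in embryoid bodies. Its lowest KO library stood at 79.0 FPKM and its highest WT library at 20.9 FPKM. The difference was 3.56 ± 0.20 log2, adjusted p = 5.04e-05. Adgrg6, an adhesion receptor known for its part in myelination, had 3.68 and 3.21 FPKM in KO against 0.24 in WT in the pluripotent culture, 2.95 and 2.07 FPKM in KO against 0.23 in WT without LIF, and 1.8 and 1.99 FPKM in KO against 0.13 in WT in embryoid bodies, an even difference of 3.94, 3.51 and 3.82 log2. Ankrd33b (3.41, 4.24 and 4.32 log2) and Ushbp1 (3.35, 3.64 and 3.30 log2) were higher in each culture too. WT held at most 3 counts of the anion exchanger gene Slc4a9 without LIF, where its ratio of counts was 17.02 (5.67 to 83.9). It held 2 counts of Wfdc15a there and in embryoid bodies, with ratios of 12.03 (3.16 to 102) and 8.41 (2.16 to 72.3).

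The 12 lower genes with the largest minimum difference had KO levels of 0 to 3.19 FPKM, while WT levels differed widely between cultures. Esrp1, a splicing regulator of epithelial cells, had 0.10 and 0.20 FPKM in KO against 8.12 in WT in the pluripotent culture, 1.23 and 0.90 FPKM in KO against 23.4 in WT without LIF, and 1.12 and 1.37 FPKM in KO against 21.5 in WT in embryoid bodies. No KO library passed 1.37 FPKM, and no WT library fell under 8.12. Its difference was -4.55 ± 0.24 log2, adjusted p = 4.12e-05. Krt7, a keratin of simple epithelia, had 0.12 and 0.25 FPKM in KO against 1.95 in WT in the pluripotent culture, 0.12 and 0.23 FPKM in KO against 4.78 in WT without LIF, and 0.12 and 0.24 FPKM in KO against 2.85 in WT in embryoid bodies, and all KO libraries lay under 0.26 FPKM. Lef1, a transcription factor that acts with beta-catenin in WNT signalling, had 0.08 and 0.26 FPKM in KO against 9.47 in WT in the pluripotent culture, 2.28 and 3.19 FPKM in KO against 26.2 in WT without LIF, and 0.70 and 1.43 FPKM in KO against 10.8 in WT in embryoid bodies. Its difference was -3.83 ± 0.40 log2, adjusted p = 0.000371 and was largest in the pluripotent culture (-5.72, -3.17 and -3.35 log2). Has2, the hyaluronan synthase, had 0 and 0.07 FPKM in KO against 0.48 in WT in the pluripotent culture, 0.30 and 0.47 FPKM in KO against 8.14 in WT without LIF, and 0.41 and 0.37 FPKM in KO against 13.5 in WT in embryoid bodies, so that the highest KO library lay just under the lowest WT library. Vrtn, known in pigs for its link to the number of vertebrae, had 0 counts in KO in the pluripotent culture, where it was at least 18.04-fold lower, and 0.24 to 1.98 FPKM in the other KO libraries, against 0.85, 29.8 and 26.5 FPKM in WT. Atp10a, a phospholipid flippase, and Tmem30b, a flippase partner subunit, had almost the same difference in each culture, -3.34, -3.36 and -3.11 log2 for Atp10a and -3.0, -3.22 and -3.11 log2 for Tmem30b. Galnt3, an enzyme that starts mucin-type glycosylation, differed by -3.49, -4.59 and -4.40 log2, Plac8 by -3.52, -4.47 and -2.81 log2 and Fndc3c1 by -3.26, -5.85 and -4.70 log2. Magel2, an imprinted gene, had 3 counts in KO in the pluripotent culture, a ratio to WT of 0.0675 (0.0130 to 0.223), and differed by -2.92 ± 0.21 log2 without LIF and -4.40 ± 0.17 log2 in embryoid bodies. Usp17lb, whose near-identical copies may share reads, differed by -3.04, -2.89 and -2.96 log2.

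**Figure D2:**
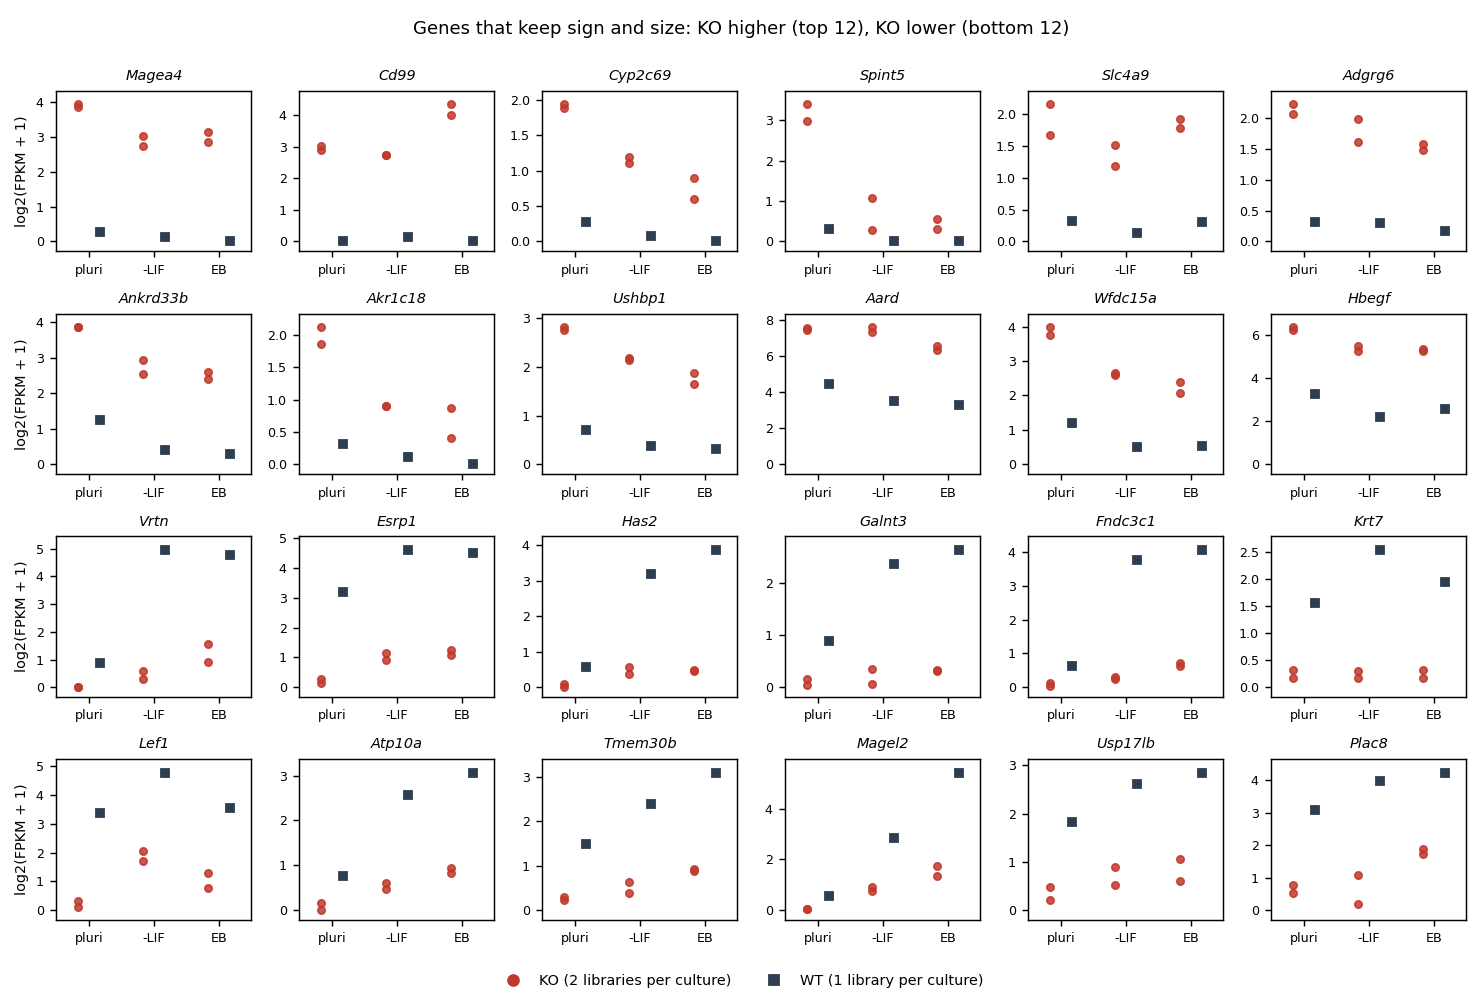
Level, as log2(FPKM + 1), of the 12 higher and 12 lower genes with the largest minimum difference, in the pluripotent culture (pluri), without LIF (-LIF) and in embryoid bodies (EB). Circles are the 2 KO libraries and squares the 1 WT library of each culture, and vertical scales differ between panels. Within each culture both KO libraries lie on 1 side of the WT library in every panel.

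Transcripts of Ragulator and the Rag GTPases did not move as a group. Of 10 genes, Lamtor5 and Slc38a9 included, 1 was higher and 3 lower in KO, and 7 had a difference that varied between cultures (an interaction of genotype with culture, called for 41.2% of all genes tested). Rragc, the Rag GTPase that pairs with RagA or RagB, had 35.1 and 29.9 FPKM in KO against 13.8 in WT in the pluripotent culture, 29.5 and 28.5 FPKM in KO against 18.9 in WT without LIF, and 39.1 and 39.8 FPKM in KO against 24.1 in WT in embryoid bodies, and rose (0.90 ± 0.14 log2, adjusted p = 0.00218). Slc38a9, the lysosomal arginine sensor, fell (-0.95 ± 0.18 log2, adjusted p = 0.00491), by least in embryoid bodies (-0.36 ± 0.16 log2). Rragb fell (-0.54 ± 0.17 log2, adjusted p = 0.0444), with -1.18, -0.23 and -0.22 log2 in the cultures, and lost its call without any 1 of the KO libraries or without the WT library of LIF withdrawal (adjusted p up to 0.103), among other settings. The scaffold subunit Lamtor1 and the subunit Lamtor4 were higher in the pluripotent culture, by 0.78 ± 0.10 log2 and 1.15 ± 0.15 log2, but not called over the 3 cultures (0.36 ± 0.12 log2, adjusted p = 0.0611 for Lamtor1; 0.23 ± 0.24 log2, adjusted p = 0.517 for Lamtor4). Lamtor2, Lamtor3, Rraga and Rragd were not called either, with log2 differences of -0.19 to 0.32. Among 32 tested genes of the mTOR complexes and their regulators, 5 rose and 3 fell. The Tsc1 and Tsc2 genes, whose products restrain mTORC1, rose slightly (0.41 ± 0.09 log2, adjusted p = 0.0094 for Tsc1; 0.45 ± 0.07 log2, adjusted p = 0.00268 for Tsc2), and Castor2, whose product pairs with the arginine sensor Castor1, fell (-1.36 ± 0.21 log2, adjusted p = 0.00188). The calls of Rragc, Slc38a9, Castor2, Tsc1 and Tsc2 were lost with KO pairs summed (adjusted p = 0.0545, 0.0936, 0.0617, 0.175 and 0.109).

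Genes of the lysosome, in contrast, were more often higher than lower. Of 36 genes for lysosomal hydrolases, 20 rose and 2 fell, with a median log2 difference of 0.61 over the cultures. The median was 0.66, 0.42 and 0.60 in the pluripotent culture, LIF withdrawal and embryoid bodies. Manba, a beta-mannosidase, had 129 and 139 FPKM in KO against 40.4 in WT in the pluripotent culture, 105 and 115 FPKM in KO against 19.3 in WT without LIF, and 125 and 123 FPKM in KO against 19.4 in WT in embryoid bodies. Its lowest KO library held over 100 FPKM and its highest WT library 40.4 FPKM. The difference was 2.35 ± 0.16 log2, adjusted p = 7.28e-05. Ctsa, the protective protein of galactosidase and neuraminidase, had 127 and 127 FPKM in KO against 27.3 in WT in the pluripotent culture, 62.9 and 65.2 FPKM in KO against 27.8 in WT without LIF, and 100.3 and 98.4 FPKM in KO against 39.5 in WT in embryoid bodies, again with no overlap. Its difference was 2.34, 1.26 and 1.32 log2, largest in the pluripotent culture. Even differences were kept by Gm2a, the activator of ganglioside breakdown (0.83, 1.03 and 0.93 log2), Asah1, the acid ceramidase (0.80, 0.65 and 0.64 log2), and Glb1, the beta-galactosidase (0.67, 0.63 and 0.97 log2). Idua, which degrades glycosaminoglycans, was the sixth hydrolase gene to keep sign and size (1.14, 0.73 and 1.09 log2). Hexa had the steepest culture dependence among the higher ones, 3.70, 1.09 and 1.22 log2. Not all hydrolases moved: the alpha-galactosidase gene Gla (-0.09 ± 0.11 log2, adjusted p = 0.599) and the sulfatase gene Ids (0.03 ± 0.11 log2, adjusted p = 0.856) were not called.

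Of 17 lysosomal membrane protein genes, 9 rose and 2 fell (median 0.45). Cd68, a lysosomal glycoprotein that is also a macrophage marker, had 34.2 and 28.6 FPKM in KO against 14.6 in WT in the pluripotent culture, 26.8 and 19.2 FPKM in KO against 11.1 in WT without LIF, and 15.5 and 13.9 FPKM in KO against 6.19 in WT in embryoid bodies, an even 1.22, 1.15 and 1.21 log2. Lamp1, a major structural protein of the lysosomal membrane, had 471 and 424 FPKM in KO against 196 in WT in the pluripotent culture, 289 and 277 FPKM in KO against 199 in WT without LIF, and 328 and 291 FPKM in KO against 182 in WT in embryoid bodies. The V-ATPase, the proton pump that acidifies lysosomes, had 11 of 18 subunit genes higher and 1 lower (median 0.52). Atp6v0d1, Atp6v1b2, Atp6v1c1 and Atp6ap2 kept sign and size, a choice that already places KO above WT within each culture. In each of these 4 every KO library was above every WT library, as in 8.58% of genes tested. Atp6v1b2 had 143 and 131 FPKM in KO against 80.03 in WT in the pluripotent culture, 154 and 139 FPKM in KO against 86.5 in WT without LIF, and 159.6 and 154 FPKM in KO against 83.96 in WT in embryoid bodies, and its difference was 0.87 ± 0.08 log2, adjusted p = 0.000252. The subunit genes Atp6v0b, Atp6v0c and Tcirg1 differed by 1.33, 1.45 and 1.27 log2 in the pluripotent culture and by -0.47 to 0.14 log2 in the others, and were not called over the cultures. In the TFEB family and folliculin list, 5 of 8 rose and 1 fell. Tfeb had 32.6 and 25.4 FPKM in KO against 19.6 in WT in the pluripotent culture, 7.16 and 6.36 FPKM in KO against 4.02 in WT without LIF, and 8.69 and 7.66 FPKM in KO against 5.19 in WT in embryoid bodies, an even 0.70, 0.81 and 0.65 log2. Tfe3 had 14.9 and 16.7 FPKM in KO against 28.3 in WT in the pluripotent culture, 18.2 and 19.01 FPKM in KO against 36.8 in WT without LIF, and 29.3 and 27.4 FPKM in KO against 49.3 in WT in embryoid bodies, and fell evenly (-0.75, -0.92 and -0.79 log2). Mcoln1, the lysosomal calcium channel gene placed in this list and in the membrane list, rose (0.69 ± 0.14 log2, adjusted p = 0.00668). Of 26 autophagy genes 9 rose and 2 fell (median 0.18). Optn, an autophagy receptor (1.74, 1.33 and 1.04 log2), and Gabarapl2, an ATG8-family gene (0.84, 1.18 and 0.72 log2), kept sign and size, while Map1lc3a, which encodes another ATG8-family protein, fell (-0.75 ± 0.16 log2, adjusted p = 0.00796). With KO pairs summed, 7 hydrolase, 1 membrane, 4 V-ATPase and 2 autophagy genes were still called higher, and the 5 calls of the TFEB list were all lost. Without the WT library of embryoid bodies 2 of that list were called higher, and 3 without KO library 1 of LIF withdrawal or without either KO library of embryoid bodies. The calls of Lamp1, Mcoln1, Tfeb and Map1lc3a were among those lost (adjusted p = 0.0619, 0.0954, 0.0631 and 0.107).

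**Figure D3:**
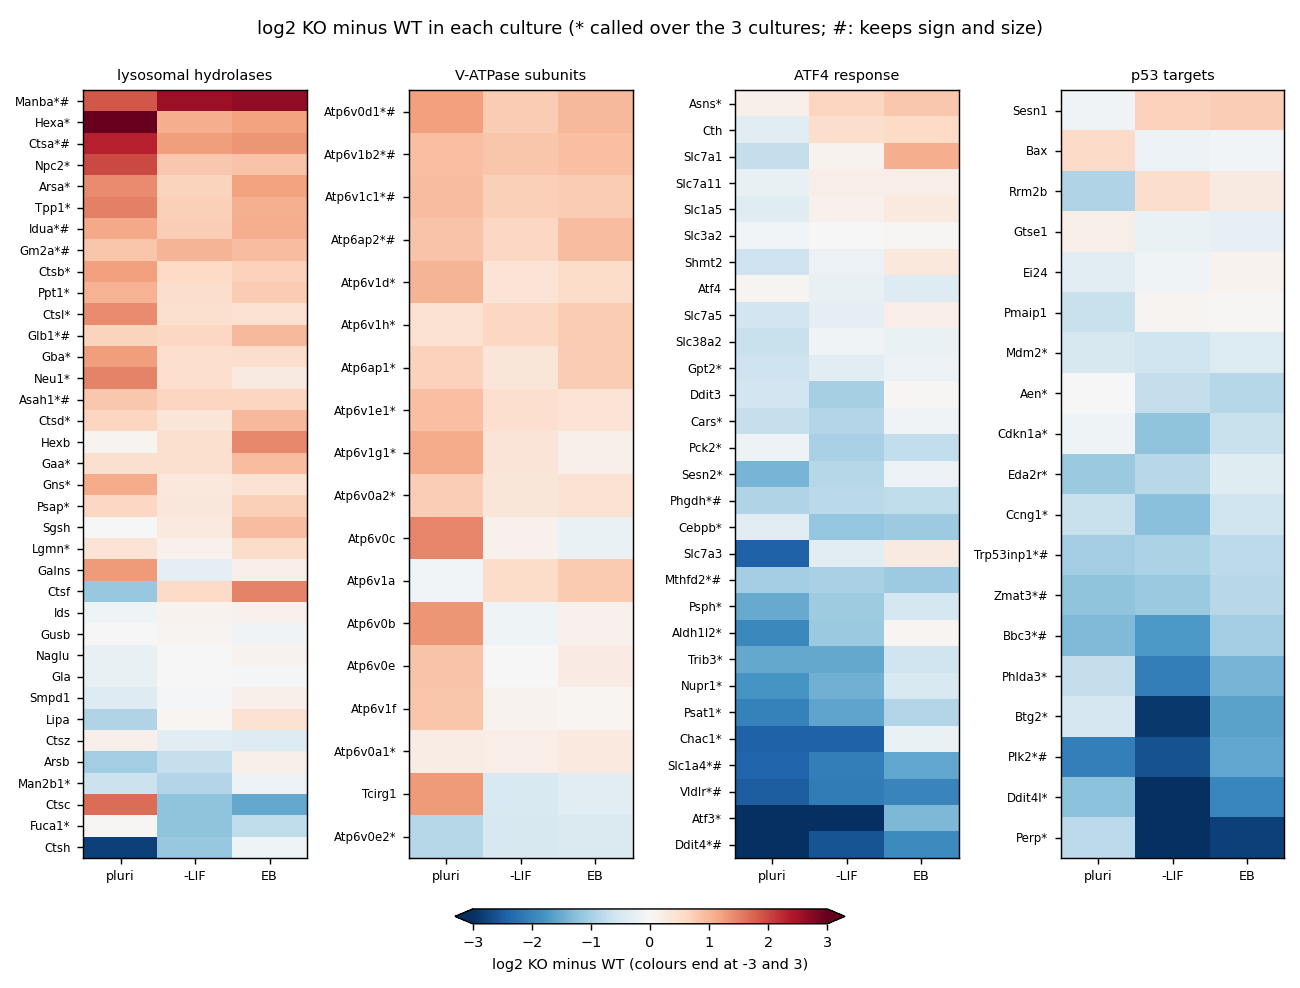
Log2 KO minus WT of every tested gene of 4 lists in the pluripotent culture (pluri), without LIF (-LIF) and in embryoid bodies (EB), sorted by the difference over the 3 cultures. Red is higher and blue lower in KO, * marks a called gene and # a gene that keeps sign and size. The hydrolase and V-ATPase panels are mostly red and the ATF4 and p53 panels mostly blue, with the deepest red of many V-ATPase genes in the pluripotent culture.

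Promoters of genes that moved together were read from RefSeq (GRCm38.p6) as the 250 bases before the annotated start, which 10929 of the tested genes had. The TFEB and TFE3 binding motif was searched as TCACGTGA, which contains the E-box CACGTG. A longer form, with G added before TCACGTGA and C after it, was searched too. The ATF4 composite element was searched as TGATGNAA and the sterol response element as TCACNCCAC, all on both strands. The letters TCACGTGA stood in 3 of 29 hydrolase promoters (10.3%), 2 of 14 membrane protein promoters (14.3%) and 1 of 13 V-ATPase promoters (7.69%), beside 1.76% of all. The 6 genes were Ctsa, Ctsd, Pip4p1 and Mcoln1, which rose, and Gla and Atp6v1a, which were not called. The same letters stood in 8 of 345 promoters of higher genes that keep sign and size (2.32%) and 2 of 343 of lower ones (0.583%). The longer form stood in 0 of 29 hydrolase, 0 of 14 membrane protein, 0 of 13 V-ATPase and 0 of 20 autophagy promoters. It also stood in 0 promoters of the ATF4 and cholesterol lists, and in 0.576% of all. Among genes that keep sign and size its share was 0.87% in higher and 0.292% in lower ones. With so low a share of all promoters, lists of this size cannot be told from the rest by it. The shorter CACGTG stood in 37.9% of hydrolase, 35.7% of membrane protein and 15.4% of V-ATPase promoters and 10% of all. It was not particular to lists that rose. It stood in 4 of 15 promoters of the cholesterol list described below (26.7%), where 9 genes fell and 0 rose. In the ATF4 list its share was 4.35%. Among genes that keep sign and size it stood in 10.4% of promoters of higher and 9.62% of lower ones. Of 20 autophagy promoters, 0 held TCACGTGA and 10% held CACGTG. The letters TGATGNAA stood in 7 of 23 promoters of the ATF4 list described next (30.4%) and 2.39% of all. They also stood in 10.3% of hydrolase, 7.69% of V-ATPase and 6.67% of cholesterol promoters, and in 0 membrane protein or autophagy promoters. TCACNCCAC stood in 1 of 15 promoters of the cholesterol list (6.67%) and 1.28% of all. Its share was no lower in hydrolase (6.9%) and membrane protein promoters (7.14%), and 0 in the V-ATPase, autophagy and ATF4 lists. Slc7a11, the cystine transporter, held TGATGNAA in 2 places and was not called (0.05 ± 0.10 log2, adjusted p = 0.754). Promoters of 7 genes are printed with the match in capitals, 5′ to 3′ on the gene's strand. They show genes with a match that rose (Ctsa, Mcoln1, Asns), that fell (Atf3, Vldlr, Hmgcs1) and that was not called (Gla, with 2 matches). Atf3 and Vldlr carry the ATF4 motif on the other strand, so that it reads TTGCATCA. Ctsa lies at chr2:164833523-164833772 (plus strand), Mcoln1 at chr8:3500269-3500518 (plus strand), Gla at chrX:134601006-134601255 (minus strand), Atf3 at chr1:191183334-191183583 (minus strand), Vldlr at chr19:27216770-27217019 (plus strand), Asns at chr6:7693210-7693459 (minus strand) and Hmgcs1 at chr13:119690101-119690350 (plus strand). A match is a description of these letters and not a binding site.
Ctsa: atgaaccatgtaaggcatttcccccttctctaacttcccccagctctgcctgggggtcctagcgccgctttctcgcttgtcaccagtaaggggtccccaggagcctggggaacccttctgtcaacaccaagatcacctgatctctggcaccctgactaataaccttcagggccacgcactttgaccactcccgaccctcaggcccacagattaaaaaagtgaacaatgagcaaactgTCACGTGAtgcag
Mcoln1: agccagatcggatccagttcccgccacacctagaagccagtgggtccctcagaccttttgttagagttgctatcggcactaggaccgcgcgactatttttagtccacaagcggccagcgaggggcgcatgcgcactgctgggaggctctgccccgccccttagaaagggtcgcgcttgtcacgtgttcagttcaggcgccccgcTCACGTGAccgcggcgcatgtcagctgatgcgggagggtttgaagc
Gla: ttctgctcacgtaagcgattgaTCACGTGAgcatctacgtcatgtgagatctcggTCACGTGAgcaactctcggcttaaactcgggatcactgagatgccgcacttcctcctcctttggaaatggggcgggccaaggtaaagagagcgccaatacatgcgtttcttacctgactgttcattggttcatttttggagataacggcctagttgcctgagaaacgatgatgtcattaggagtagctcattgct
Atf3: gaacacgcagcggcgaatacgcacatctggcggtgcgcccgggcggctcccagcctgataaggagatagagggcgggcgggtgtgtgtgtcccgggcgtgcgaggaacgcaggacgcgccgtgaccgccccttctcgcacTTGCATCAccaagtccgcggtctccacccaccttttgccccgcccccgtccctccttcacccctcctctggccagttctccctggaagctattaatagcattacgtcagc
Vldlr: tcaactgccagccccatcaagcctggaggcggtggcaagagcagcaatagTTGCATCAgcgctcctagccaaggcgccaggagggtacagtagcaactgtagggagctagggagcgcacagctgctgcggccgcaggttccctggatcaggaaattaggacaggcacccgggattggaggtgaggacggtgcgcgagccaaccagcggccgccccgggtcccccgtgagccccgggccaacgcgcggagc
Asns: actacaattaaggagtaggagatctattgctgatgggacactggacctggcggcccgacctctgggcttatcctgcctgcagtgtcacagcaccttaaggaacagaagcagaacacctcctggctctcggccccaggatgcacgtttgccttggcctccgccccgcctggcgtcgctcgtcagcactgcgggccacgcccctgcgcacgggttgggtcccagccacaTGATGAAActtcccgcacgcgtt
Hmgcs1: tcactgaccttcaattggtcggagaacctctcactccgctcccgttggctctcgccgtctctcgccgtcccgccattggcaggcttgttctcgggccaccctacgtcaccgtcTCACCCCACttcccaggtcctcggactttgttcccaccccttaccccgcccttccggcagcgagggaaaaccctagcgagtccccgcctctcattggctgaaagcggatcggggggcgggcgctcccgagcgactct

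Genes of the ATF4 response, which supplies amino acids and signals stress, were mostly lower. Of 29, 17 fell and 1 rose, with a median of -0.83 over the cultures. The median was -0.71, -0.88 and -0.20 in the pluripotent culture, LIF withdrawal and embryoid bodies. Phgdh, the first enzyme of serine synthesis, had 36.1 and 41.4 FPKM in KO against 79.4 in WT in the pluripotent culture, 47.7 and 51.8 FPKM in KO against 91.5 in WT without LIF, and 52.2 and 53.6 FPKM in KO against 89.9 in WT in embryoid bodies, and no KO library reached the lowest WT library. Its difference was -0.83 ± 0.07 log2, adjusted p = 0.000171, with -0.91, -0.82 and -0.77 log2 in the cultures. Mthfd2, a mitochondrial folate enzyme, differed as evenly (-1.05, -0.97 and -1.08 log2), and Slc1a4, a neutral amino acid transporter, by more (-2.38, -2.08 and -1.55 log2). Ddit4, a stress-induced inhibitor of mTORC1, had 4.71 and 11.2 FPKM in KO against 82.8 in WT in the pluripotent culture, 12.96 and 28.2 FPKM in KO against 129 in WT without LIF, and 21.6 and 27.97 FPKM in KO against 93.2 in WT in embryoid bodies. The KO libraries of a pair differed by more than 2-fold in the pluripotent culture and without LIF, yet all 6 stayed under every WT library (-2.60 ± 0.32 log2, adjusted p = 0.000754). Vldlr, the VLDL receptor gene, had 0.09 and 0.29 FPKM in KO against 1.16 in WT in the pluripotent culture, 0.26 and 0.62 FPKM in KO against 1.95 in WT without LIF, and 0.16 and 0.19 FPKM in KO against 0.71 in WT in embryoid bodies. Psat1, the next enzyme of serine synthesis, had uneven differences (-2.03, -1.59 and -0.87 log2), as had Atf3, a stress-induced transcription factor gene (-3.0, -3.03 and -1.34 log2). Asns, the asparagine synthetase, rose (0.52 ± 0.12 log2, adjusted p = 0.0131), by 0.14, 0.65 and 0.80 log2. Atf4 itself was not called. The count that fell was 7 with KO pairs summed and 9 with the LIF withdrawal culture left out.

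Targets of p53 were also lower: 13 of 19 fell and the other 6 did not pass the test, with a median of -0.77. Bbc3, which promotes apoptosis, had 9.32 and 7.6 FPKM in KO against 23.1 in WT in the pluripotent culture, 10.3 and 8.65 FPKM in KO against 32.6 in WT without LIF, and 19.2 and 14.2 FPKM in KO against 34.4 in WT in embryoid bodies, and its difference was -1.37 ± 0.16 log2, adjusted p = 0.000533. Plk2, a stress-induced kinase, had 4.32 and 3.88 FPKM in KO against 18.6 in WT in the pluripotent culture, 6.24 and 4.52 FPKM in KO against 34.5 in WT without LIF, and 13.8 and 8.67 FPKM in KO against 32.7 in WT in embryoid bodies, and differed by -2.06, -2.62 and -1.55 log2. Zmat3 (-1.22, -1.11 and -0.84 log2) and Trp53inp1 (-1.05, -0.94 and -0.79 log2) kept even differences. Bbc3, Plk2 and Zmat3 keep sign and size, a choice that already places KO below WT within each culture. Every KO library of these 3 genes was below every WT library, as in 7.6% of genes tested. For Trp53inp1 that held within each culture only. Cholesterol synthesis genes followed in part, with 9 of 22 lower, 13 not called and a median of -0.31. Hmgcs1, which makes the HMG-CoA used for sterols, had 49.6 and 48.3 FPKM in KO against 84.1 in WT in the pluripotent culture, 38.3 and 44.5 FPKM in KO against 77.1 in WT without LIF, and 49.8 and 50.8 FPKM in KO against 89.2 in WT in embryoid bodies. It was the 1 cholesterol gene to keep sign and size (-0.66, -0.84 and -0.83 log2). Dhcr7, the last step to cholesterol, differed by -1.70, -1.35 and -0.71 log2. Of the p53 and cholesterol genes 5 and 2 fell with KO pairs summed, and with the LIF withdrawal culture left out 7 and 4.

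**Figure D4:**
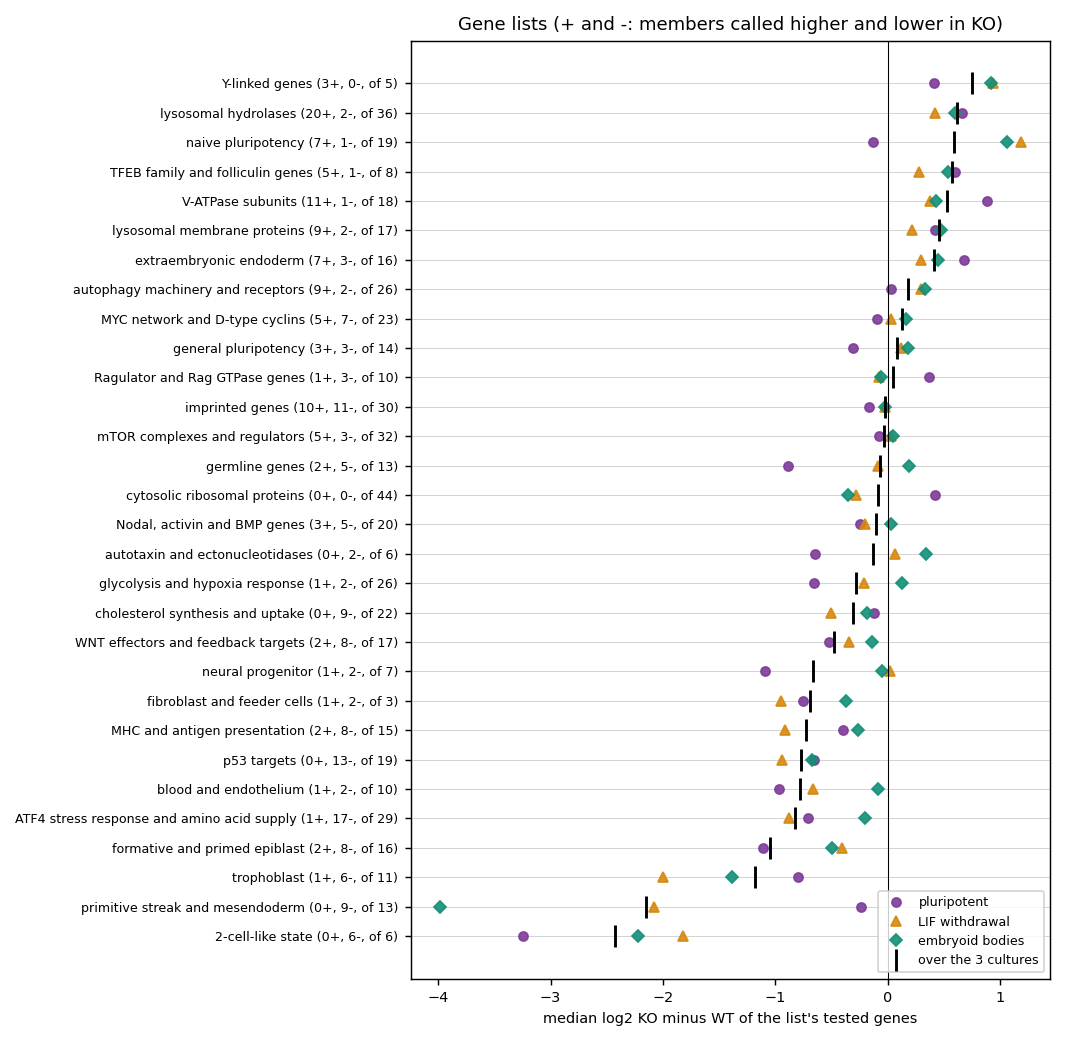
Median log2 KO minus WT of the tested genes of 30 lists in the pluripotent culture (circles), LIF withdrawal (triangles) and embryoid bodies (diamonds), with the median over the 3 cultures as a bar, sorted by that value. The counts of called genes follow each list's name, higher (+) before lower (-). Lysosomal lists lie right of 0 in all 3 cultures, and the p53, trophoblast and 2-cell-like lists left of 0.

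Naive pluripotency genes were higher chiefly in the differentiating cultures. Of 19, 7 rose and 1 fell, and the median was -0.13 in the pluripotent culture, 1.19 without LIF and 1.06 in embryoid bodies. For 17 of the 19 the difference varied between cultures. Esrrb, a core naive factor, had 229.9 and 215 FPKM in KO against 186 in WT in the pluripotent culture, 182 and 172 FPKM in KO against 69.5 in WT without LIF, and 217 and 207 FPKM in KO against 64.5 in WT in embryoid bodies. Tfcp2l1, another, had 53.9 and 51.5 FPKM in KO against 34.1 in WT in the pluripotent culture, 33.2 and 29.5 FPKM in KO against 7.19 in WT without LIF, and 21.9 and 21.1 FPKM in KO against 7.0 in WT in embryoid bodies. Tcl1, an AKT co-activator, was the 1 gene of the list to keep sign and size (0.90, 1.74 and 1.67 log2). Klf4 was lower in the pluripotent culture and higher in the others (-0.69, 1.55 and 1.43 log2), with no call. Dppa3 was the 1 naive gene that fell (-3.20 ± 0.47 log2, adjusted p = 0.0017), at levels of at most 9.35 FPKM in any library. Of 14 general pluripotency genes 3 rose and 3 fell. Pou5f1 did not pass the test (0.12 ± 0.08 log2, adjusted p = 0.307). L1td1, which encodes an RNA-binding protein, rose (0.76 ± 0.15 log2, adjusted p = 0.00743), as did Dppa2 (0.46 ± 0.11 log2, adjusted p = 0.0173). Nanog fell slightly (-0.44 ± 0.10 log2, adjusted p = 0.0116), and Lin28b, an inhibitor of let-7 maturation, kept -2.01, -1.57 and -1.68 log2. With the pluripotent culture left out 12 naive genes rose, and with KO pairs summed 3. Dppa3, Nanog, L1td1 and Dppa2 lost their calls with pairs summed (adjusted p = 0.0553, 0.156, 0.0955 and 0.169). Without the WT library of LIF withdrawal L1td1 and Dppa2 were not called either (adjusted p = 0.0507 and 0.0983).

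Genes of the formative and primed epiblast, the stages that follow, moved both ways, with 8 of 16 lower and 2 higher. Besides Lef1, the transcription factor genes Sox3 (-3.04, -2.07 and -2.89 log2) and Sall2 (-3.57, -1.97 and -1.99 log2) were lower in each culture. Pou3f1, another (-0.01, -2.25 and -2.61 log2), and Dnmt3b, a DNA methyltransferase gene (-0.11, -1.75 and -2.28 log2), were lower without LIF and in embryoid bodies and near WT in the pluripotent culture. Dnmt3l, the cofactor of DNA methyltransferases, went the other way in all cultures, with 648 and 630.3 FPKM in KO against 203 in WT in the pluripotent culture, 596 and 527 FPKM in KO against 144 in WT without LIF, and 609 and 586 FPKM in KO against 129 in WT in embryoid bodies. Its KO libraries all lay above 500 FPKM and its WT libraries at or under 203 FPKM, a difference of 2.0 ± 0.11 log2, adjusted p = 5.04e-05. Of 13 primitive streak and mesendoderm genes 9 fell and 4 were not called. T, also called Brachyury, had 0.28 and 0.14 FPKM in KO against 0.28 in WT in the pluripotent culture, 0.18 and 0.18 FPKM in KO against 17.5 in WT without LIF, and 0.05 and 0.18 FPKM in KO against 24.03 in WT in embryoid bodies. Wnt3, the ligand that starts the streak, had 0 and 0.03 FPKM in KO against 0.18 in WT in the pluripotent culture, 0.06 and 0.09 FPKM in KO against 5.41 in WT without LIF, and 0.06 and 0 FPKM in KO against 2.46 in WT in embryoid bodies. Eomes, which keeps sign and size with Wnt3, had 2.58 and 3.01 FPKM in KO against 5.1 in WT in the pluripotent culture, 10.4 and 14.2 FPKM in KO against 21.6 in WT without LIF, and 14.8 and 14.9 FPKM in KO against 35.01 in WT in embryoid bodies. Outside the pluripotent culture, where T and Wnt3 were near 0 in both genotypes, no KO library passed 0.18 FPKM for T or 0.09 FPKM for Wnt3. With KO pairs summed 3 formative and 2 streak genes fell, and with the LIF withdrawal or embryoid body culture left out 3 and 4 streak genes. T lost its call with pairs summed or LIF withdrawal left out (adjusted p = 0.0779 and 0.0649).

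Among signalling genes, WNT effectors and feedback targets had 8 of 17 lower and 2 higher. Tcf7, of the same gene family as Lef1, had 9.34 and 11.2 FPKM in KO against 23.5 in WT in the pluripotent culture, 18.1 and 21.8 FPKM in KO against 39.4 in WT without LIF, and 28.9 and 32.4 FPKM in KO against 56.8 in WT in embryoid bodies, an even -1.10, -0.92 and -0.88 log2. The feedback gene Axin2 differed by -1.32, -0.35 and -1.03 log2. In the Nodal, activin and BMP list 3 of 20 rose and 5 fell. Bmp4, a BMP ligand, had 223 and 209.99 FPKM in KO against 25.3 in WT in the pluripotent culture, 56.6 and 46.5 FPKM in KO against 7.78 in WT without LIF, and 64.3 and 50.3 FPKM in KO against 11.2 in WT in embryoid bodies. All KO libraries exceeded the highest WT library, and the difference was 2.79 ± 0.19 log2, adjusted p = 7.28e-05. Lefty2, a secreted inhibitor and target of Nodal, had 119 and 132 FPKM in KO against 56.8 in WT in the pluripotent culture, 202 and 219 FPKM in KO against 58.4 in WT without LIF, and 215 and 238 FPKM in KO against 63.7 in WT in embryoid bodies, again without overlap (1.66 ± 0.13 log2, adjusted p = 0.000132). Fst, the activin antagonist, had 0.34 and 0.38 FPKM in KO against 0.58 in WT in the pluripotent culture, 0.16 and 0.21 FPKM in KO against 7.49 in WT without LIF, and 0.15 and 0 FPKM in KO against 29.8 in WT in embryoid bodies. Of the MYC and D-type cyclin genes 5 of 23 rose and 7 fell. Mycn, a MYC gene of embryonic cells, had 6.81 and 7.89 FPKM in KO against 37.5 in WT in the pluripotent culture, 5.53 and 6.58 FPKM in KO against 88.8 in WT without LIF, and 16.4 and 14.2 FPKM in KO against 76.8 in WT in embryoid bodies. Its difference was -2.23, -3.81 and -2.33 log2, and Mycl, another MYC gene, fell too (-1.69, -1.41 and -0.86 log2). With KO pairs summed 3 WNT and 3 MYC or cyclin genes fell.

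Markers of other cell types were counted list by list. Of 16 extraembryonic endoderm genes 7 rose and 3 fell. Col4a1 and Col4a2, basement membrane collagens, kept sign and size, and Col4a1 had 48.1 and 43.1 FPKM in KO against 12.6 in WT in the pluripotent culture, 29.3 and 30.4 FPKM in KO against 13.7 in WT without LIF, and 22.7 and 16.6 FPKM in KO against 4.0 in WT in embryoid bodies. Hnf4a rose too (1.79, 3.36 and 4.18 log2), while Lamb1 fell (-2.78, -1.95 and -1.20 log2). Foxa2 of the same list had 1 count over the KO pair against 92 in WT in embryoid bodies. Its ratio there was 0.00538 (0.000135 to 0.0307, counting error only). In the pluripotent culture Foxa2 had 1 count in KO and 1 in WT. The 14 defining markers of that tissue summed to 379.8 to 1303 FPKM in KO and 145.6 to 346.4 FPKM in WT. Most of it was Apoe, while Sox17 and Afp stayed at or under 0.40 and 0.09 FPKM. In the trophoblast list 6 of 11 fell and 1 rose. There 10 markers summed to 28.6 to 70.8 FPKM in KO and 76.7 to 133.4 FPKM in WT, with Elf5 at or under 0.32 FPKM. The gap was small in the pluripotent culture, with 70.8 and 67.5 FPKM in KO against 76.7 in WT. It was wide without LIF (28.6 and 29.6 FPKM against 133.4) and in embryoid bodies (43.5 and 44.5 FPKM against 121.0). Tfap2c had 2.34 and 4.6 FPKM in KO against 15.9 in WT in the pluripotent culture, 1.41 and 2.46 FPKM in KO against 8.01 in WT without LIF, and 9.07 and 9.98 FPKM in KO against 25.3 in WT in embryoid bodies. Tead4, the 1 gene of the list that rose, had 13.6 and 11.6 FPKM in KO against 4.17 in WT in the pluripotent culture, 5.24 and 4.51 FPKM in KO against 1.79 in WT without LIF, and 2.69 and 3.0 FPKM in KO against 1.15 in WT in embryoid bodies. Vim, an intermediate filament gene of mesenchymal cells, had 408 and 379.7 FPKM in KO against 157 in WT in the pluripotent culture, 151 and 139 FPKM in KO against 63.8 in WT without LIF, and 96.3 and 82.8 FPKM in KO against 32.1 in WT in embryoid bodies (1.39 ± 0.10 log2, adjusted p = 7.81e-05), while Col1a1 fell (-3.26, -2.29 and -2.03 log2), as did Thy1 (-0.69 ± 0.13 log2, adjusted p = 0.00604). The neural list split: Nes (-1.75, -3.01 and -2.32 log2) and Sox11 (-1.53, -1.40 and -1.55 log2) fell, and Sox1 rose (1.09, 4.64 and 3.86 log2). Of 10 blood and endothelium genes 1 rose and 2 fell, and of 6 ectonucleotidase genes with autotaxin 2 fell. Enpp2, the autotaxin gene, had 0 and 0.03 FPKM in KO against 0.09 in WT in the pluripotent culture, 0.06 and 0.17 FPKM in KO against 4.39 in WT without LIF, and 0.18 and 0.23 FPKM in KO against 14.1 in WT in embryoid bodies. With KO pairs summed 3 extraembryonic endoderm genes rose and 4 trophoblast genes fell, and Thy1 and Sox1 were not called (adjusted p = 0.0921 and 0.0733). The part of other cell types in any result above was not tested.

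All 6 tested genes of the 2-cell-like state, a rare state of stem cell cultures, fell, and 5 of them kept sign and size. Zscan4f had 4.96 and 8.02 FPKM in KO against 63.3 in WT in the pluripotent culture, 15.6 and 20.1 FPKM in KO against 66.8 in WT without LIF, and 29.5 and 20.96 FPKM in KO against 118 in WT in embryoid bodies. The highest KO library was at 29.5 FPKM and the lowest WT library at 63.3 FPKM. Zscan4c, Zscan4d, Zscan4f and the Usp17l genes have near-identical copies, so the levels of single members are uncertain. Of 15 genes of the major histocompatibility complex and antigen presentation 8 fell and 2 rose. Tap1, the peptide transporter, had 0.68 and 0.66 FPKM in KO against 4.05 in WT in the pluripotent culture, 0.91 and 1.13 FPKM in KO against 10.02 in WT without LIF, and 1.63 and 1.51 FPKM in KO against 7.25 in WT in embryoid bodies. Psmb9, an immunoproteasome subunit, fell evenly (-1.77, -2.11 and -1.58 log2), while H2-Eb1, a class II gene, rose (6.79, 2.58 and 2.73 log2). Imprinted genes moved both ways, 10 of 30 higher and 11 lower, and 9 kept sign and size. Mest had 27.96 and 18.6 FPKM in KO against 3.13 in WT in the pluripotent culture, 42.7 and 25.6 FPKM in KO against 3.6 in WT without LIF, and 36.6 and 24.9 FPKM in KO against 4.01 in WT in embryoid bodies. Its KO number 1 library was above its number 2 library in every culture, and all 6 were above WT. Peg3 had 1.93 and 1.92 FPKM in KO against 9.03 in WT in the pluripotent culture, 8.26 and 8.22 FPKM in KO against 48.5 in WT without LIF, and 9.02 and 11.7 FPKM in KO against 32.2 in WT in embryoid bodies. Higher with Mest were Plagl1 (3.08, 3.25 and 2.88 log2), Impact (2.06, 1.43 and 1.13 log2), Kcnq1ot1 (1.45, 1.10 and 0.72 log2) and Xist (1.26, 1.16 and 0.80 log2), and lower with Peg3 and Magel2 were Dlk1 (-1.74, -1.88 and -1.70 log2) and Phlda2 (-1.18, -1.38 and -0.83 log2). Kcnq1ot1 and Xist are antisense to other genes, and whether the counting used strand is not given in the sources used here. Of 5 Y-linked genes 3 were higher and 2 were not called. Kdm5d, a histone demethylase, was at 0.53 to 0.91 FPKM in KO and 0.07 to 0.16 FPKM in WT. Of 13 germline genes 2 rose and 5 fell. With KO pairs summed the 6 genes of the 2-cell-like state were still called, 4 antigen presentation genes fell, and 7 imprinted genes rose and 4 fell; H2-Eb1 was not called (adjusted p = 0.0611).

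Many differences did not keep their size. An interaction of genotype with culture was called for 5757 genes (41.2%), against 3150 by DESeq2's likelihood ratio test. Of the 874 genes that keep sign and size, 135 were among the 5757. Cytosolic ribosomal protein genes showed it as a list: none of 44 was called over the 3 cultures by edgeR (0 higher and 4 lower at an unadjusted p under 0.05, and 0 higher and 2 lower by DESeq2), while 41 had a called interaction. Their median was 0.42 in the pluripotent culture, -0.29 without LIF and -0.36 in embryoid bodies, and with the pluripotent culture left out 37 were lower in KO. Rplp1 had 2711 and 2723 FPKM in KO against 1699 in WT in the pluripotent culture, 1508 and 1268 FPKM in KO against 2121 in WT without LIF, and 1709.8 and 1899.7 FPKM in KO against 2530.3 in WT in embryoid bodies. In glycolysis and the hypoxia response 1 of 26 rose and 2 fell over the cultures, and the median was -0.66, -0.22 and 0.12. Some of these genes also differed within KO pairs, such as Bnip3 with 18.1 and 50.6 FPKM in the pluripotent culture.

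The smallest interaction p was that of Sfn, an epithelial 14-3-3 protein, which had 50.1 and 47.02 FPKM in KO against 49.1 in WT in the pluripotent culture, 4.85 and 3.84 FPKM in KO against 77.8 in WT without LIF, and 4.41 and 3.28 FPKM in KO against 26.7 in WT in embryoid bodies. It matched WT in the pluripotent culture and was far lower in the others (adjusted p of the interaction by edgeR = 3.13e-07). St14, a membrane serine protease gene, had the same shape (0.20, -2.50 and -1.43 log2, adjusted p of the interaction by edgeR = 1.08e-06). Ccnd1, a D-type cyclin, had 1.28 and 1.98 FPKM in KO against 51.7 in WT in the pluripotent culture, 12.6 and 15.6 FPKM in KO against 62.7 in WT without LIF, and 10.2 and 9.51 FPKM in KO against 18.1 in WT in embryoid bodies, a gap that was widest in the pluripotent culture (adjusted p of the interaction = 8.43e-07). Apoe, a lipid carrier, was highest in the pluripotent KO libraries, with 1202 and 1063 FPKM in KO against 98.8 in WT in the pluripotent culture, 350.4 and 312 FPKM in KO against 146 in WT without LIF, and 505 and 436 FPKM in KO against 298 in WT in embryoid bodies (adjusted p of the interaction = 1.31e-06). Fgf5 and Fgf8, signals of the epiblast and the streak, fell over the cultures but not in the pluripotent one. Fgf5 had 1.11 and 0.63 FPKM in KO against 0.42 in WT in the pluripotent culture, 6.04 and 5.29 FPKM in KO against 21.98 in WT without LIF, and 8.11 and 10.5 FPKM in KO against 78.8 in WT in embryoid bodies. Fgf8 had 0.17 and 0.50 FPKM in KO against 0 in WT in the pluripotent culture, 0.63 and 0.33 FPKM in KO against 10.7 in WT without LIF, and 0.47 and 0.54 FPKM in KO against 30.8 in WT in embryoid bodies. Both are near 0 in the pluripotent culture, where Fgf8 had 8 counts in KO and 0 in WT. The calls of Sfn, St14, Apoe, Fgf5 and Fgf8 over the 3 cultures were each lost without the WT library of LIF withdrawal (adjusted p = 0.132, 0.184, 0.0868, 0.0814 and 0.0575) and under other settings. Ccnd1 lost its call with KO pairs summed or LIF withdrawal left out (adjusted p = 0.130 and 0.0746).

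**Figure D5:**
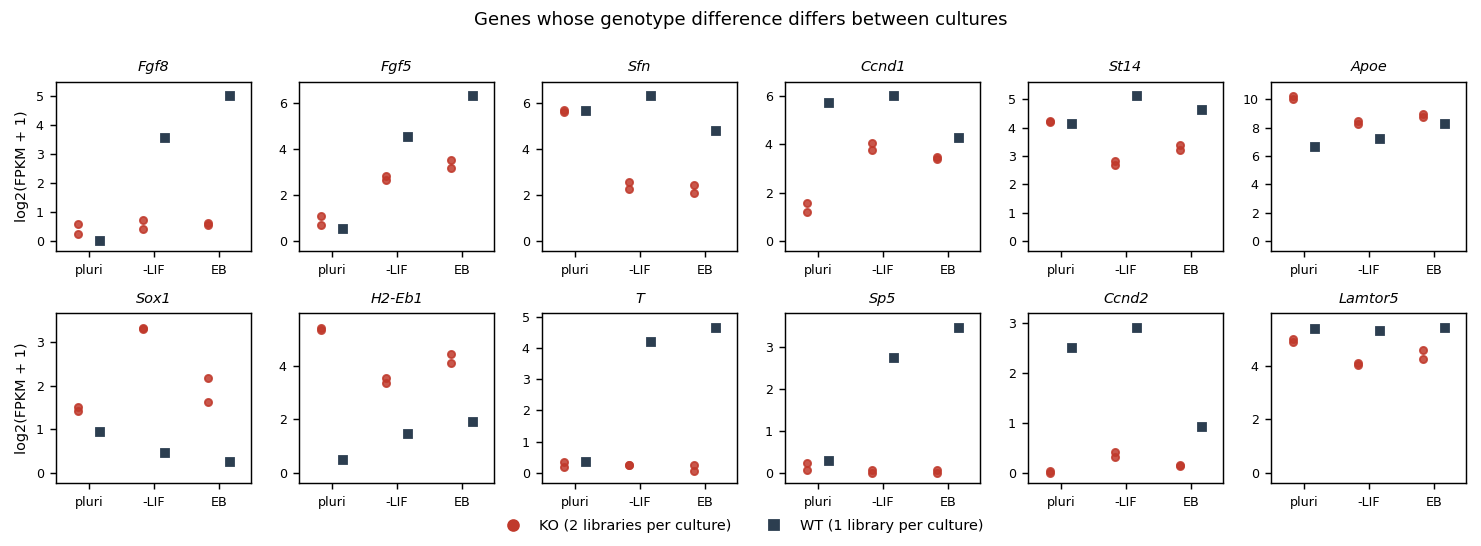
Level, as log2(FPKM + 1), of 12 genes whose genotype difference varies between the pluripotent culture (pluri), LIF withdrawal (-LIF) and embryoid bodies (EB). Circles are the 2 KO libraries and squares the 1 WT library of each culture, and vertical scales differ. For Sfn, St14, T and Sp5 the genotypes meet in the pluripotent culture, and for Apoe, Ccnd1 and H2-Eb1 they are farthest apart there.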

How the data were processed

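RNA-seq of total RNA was analysed for 9 libraries, 6 KO and 3 WT. The submitters' processing notes name Bowtie2 and the build mm8. Which program quantified genes, with which annotation and whether by strand, is not given in the sources used here. The authors deposited an expected count and an FPKM per gene and library; a gene not listed in a library was set to 0. Between 78.0 and 78.4% of the expected counts in a library were whole (tolerance 0.005), and all were rounded. IDs were matched to symbols for 20234 genes by gene ID and 9 by accession, and 44 stayed unmatched.

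Genes with a mean of at least 0.5 FPKM were fitted with edgeR 4.0.16 (TMM, quasi-likelihood, R 4.3.3) as culture plus genotype. A second fit with 6 groups gave the difference within each culture and the interaction; there the spread came from the KO pairs alone, 3 residual degrees of freedom, so each lone WT library was assumed to vary like them. Biological coefficients of variation were 18.2% in the fit of culture plus genotype and 6.52% in that with 6 groups. P-values of the first fit measure the spread within KO pairs pooled with variation of the genotype difference between cultures. Those of the second measure the spread within KO pairs alone, which may be technical. Standard errors were derived from the F statistic and can lie below counting error at low counts. Intervals of counts were exact binomial (SciPy 1.17.1), at 95%, and a group at 0 was given 3 counts. The fits were also run on simulated data, which cannot show how much the lone WT libraries vary, and no result rests on that run. The KO libraries of a culture differed beyond sampling noise (chi-square per degree of freedom 3.05 to 4.62), and each was used as 1 library. Reads shared by near-identical copies could not be resolved. DESeq2 1.42.0 and limma 3.58.1 on log2(FPKM + 1 or 0.1) were alternatives.

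Named genes were the 12 highest and 12 lowest by the smallest of the 3 differences among those that keep sign and size (mean FPKM at least 1), up to 5 called genes of each list by adjusted p, up to 4 per direction that went the other way by 2-fold in 1 culture, the 4 with the smallest interaction p and all Ragulator and Rag genes; Atf3, Asns, Axin2, Hexa, Esrrb, Klf4 and other list members outside it were added after their values were seen. The gene lists and the members were chosen with earlier results of these data known. For Samtor and Inhba, 2 list entries, no gene was matched. Not every gene that the rule names is described.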

Additional observations from a re-analysis of the deposited data

Results flagged for a closer look

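A difference between cultures was tested for every gene as an interaction of genotype with culture (edgeR's quasi-likelihood test, Benjamini-Hochberg adjusted, 6 KO and 3 WT libraries), and 5757 of 13990 genes were called. Among the 12 higher and 12 lower genes with the largest minimum difference, the size still varied between cultures for Aard (adjusted p = 0.0149), Vrtn (0.0156), Esrp1 (0.0311), Fndc3c1 (0.0188), Lef1 (0.00776) and Magel2 (0.00574). Among Ragulator and Rag genes it varied for Lamtor1 (adjusted p = 0.00437), Lamtor4 (0.000582), Lamtor5 (0.0119), Rragb (0.000705), Rragc (0.0109), Rragd (7.08e-05) and the sensor Slc38a9 (0.0135). Fgf8 (adjusted p = 0.000418) and Fgf5 (0.000119) had the opposite sign in the pluripotent culture. The smallest values were those of Sfn (3.13e-07), Ccnd1 (8.43e-07), St14 (1.08e-06) and Apoe (1.31e-06). Each of these tests rests on 1 WT library per culture.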

How the results depend on the processing

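The 3787 calls became 4214 with DESeq2, 3779 with its size factors in edgeR, 3888 without TMM (1575 higher, 2313 lower), 4124 without a filter, 3502 at a mean FPKM of at least 1, and 3864 and 3782 with limma. Leaving out 1 library gave 2544 to 5896 (1316 to 2990 higher, 1228 to 2906 lower); the 5896 without WT pluripotent and the 1228 lower without WT LIF withdrawal are over 1.5 times from the main values. Leaving out 1 KO library gave 4723 to 5909 interactions and 829 to 867 genes that keep sign and size (407 to 439 higher, 419 to 431 lower). The KO numbers were not taken to pair the libraries across cultures. Only 1 of 3 correlations of deviations passed 0.1 (0.183, 0.0220 and 0.0712). Taken over all tested genes, these correlations cannot decide whether the numbers pair. Slc16a4 and Mest, among other genes, separated number 1 from number 2 in every culture. A replicate block on KO numbers called 3159 (1562 higher, 1597 lower), 3147 of them shared. Other values over 1.5 times from the main ones were the 3150 interactions of DESeq2, the 784 (423 and 361) calls with KO pairs summed, the 1524 (849 and 675) without LIF withdrawal, and the 2809 higher calls, of 5468, without the pluripotent culture. The 874 genes that keep sign and size became 2117 (1062 and 1055) without the pluripotent culture, 1421 (650 and 771) without embryoid bodies, 988 without LIF withdrawal, 483 (215 and 268) at 2-fold in each culture and 418 (217 and 201) with the smallest difference at least 2/3 of the largest; judging sign and size without a culture was chosen after seeing the data. The cause of these moves was not tested. Of 150 called genes named by the rule, 95 kept their call under every setting in which they were tested, and no named gene reversed. Some, such as Wnt3 and Kdm5d, were not tested at a mean FPKM of at least 1. Genes near 3 counts in WT, such as Magea4 and Cd99, are limited by depth to the bounds given.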

Other observations

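The KO libraries numbered 2 differed from those numbered 1 in some genes. The comparison was chosen after the data were seen. It was made within the 6 KO libraries with culture as a covariate (edgeR's quasi-likelihood test), which does not require the cultures to agree. Cphx2, for example, was called but had 17.92 FPKM in KO number 2 of LIF withdrawal and 0 FPKM in every other library. At an adjusted p under 0.05, 21 genes were higher and 35 lower in number 2, and 1752 differed at an unadjusted p under 0.05. Slc16a4, a monocarboxylate transporter family gene, had 3.72, 3.49 and 5.23 FPKM in number 2 against 0.19, 0.15 and 0.26 FPKM in number 1, in the pluripotent culture, LIF withdrawal and embryoid bodies. Mest, Plagl1, Meg3 and Rian, which are imprinted genes, and the X-linked genes Rhox5 and Mid1 were among the 56. So were Egln3, Ndrg1, Bnip3, P4ha1, Vegfa and Pfkp of the glycolysis and hypoxia list, and Ddit4, all higher in number 2. Meg3 had 3.47, 1.89 and 4.51 FPKM in number 2 against 5.95, 3.02 and 10.8 FPKM in number 1. Of the 56, 22 were also called between KO and WT, and 7 of those keep sign and size.

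By chromosome, the median log2 difference of KO minus WT lay between -0.07 and 0.05 on every autosome and was -0.15 on X. It was 1.11 over the 6 tested genes on Y (1.12, 1.04 and 1.21 in the 3 cultures), 3 of which were higher and keep sign and size. Genes that keep sign and size were not split evenly on some: chromosome 12 had 4 higher and 26 lower, X 13 higher and 31 lower, 17 had 12 higher and 31 lower, and 18 had 12 higher and 3 lower. In 301 tested genes the difference was at least 2-fold in opposite directions in 2 cultures.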
